A study of Mus musculus with 6 samples.

Results

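Sox10, Fabp7, S100b and Ngfr, genes of olfactory ensheathing glia and of related Schwann-type glia, were examined on arrays of cells that fluorescence sorting had taken from mouse embryonic main olfactory epithelium. The 4 genes were taken by symbol from 19938 measured genes, not by their values, and each had 1 probe set. The embryos were C57BL/6 at E18.5 and carried a targeted Fezf1 allele in which the Fezf1 promoter drives EGFP, with 1 copy (Fezf1+/-) or 2 copies (Fezf1-/-) of it. EGFP-positive cells were sorted from both genotypes, so every group was chosen by the activity of that promoter and none was a wild type. There were 3 Fezf1+/- and 3 Fezf1-/- arrays, 1 per RNA sample, and the labels do not say whether the replicates of a genotype came from separate embryos or from pools. Differences below are Fezf1-/- minus Fezf1+/- in log2 signal units, in which 1 unit is 2-fold.

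Ensheathing glia wrap the bundled axons of olfactory neurons from the epithelium to the olfactory bulb. They descend from the neural crest, as Schwann cells do, and lie mainly along the nerve below the epithelium. Sox10 is the transcription factor of the crest-derived glial lineage, and in the olfactory mucosa it is also found in Bowman's glands. Fabp7 encodes the brain-type fatty acid binding protein of immature glia, S100b a calcium-binding protein of glia, and Ngfr the low-affinity neurotrophin receptor p75, which ensheathing glia share with crest-derived and some mesenchymal cells. None of these genes belongs to glia alone, and in RNA of a whole sort fewer cells of a type and less RNA per cell cannot be told apart.

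The genotype check was clear on every array, since Fezf1 stood at 11.25, 11.12 and 11.30 on the Fezf1+/- arrays and at 5.56, 5.92 and 6.28 on the Fezf1-/- arrays. The array of Fezf1-/- 1 stood apart from the others. Its correlations across genes with them were 0.905 to 0.935, against 0.975 to 0.995 among the other 5 arrays. The members are therefore given with that array and without it, and differences of other genes are given in both fits or with their fit named. All 6 arrays had medians between 5.82 and 5.95 and lower quartiles between 4.30 and 4.44, and a value under the lower quartile is treated here as a low signal of uncertain size.

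The sequences before the starts of 3 members are shown, and the source used held none for Sox10. Fabp7 and S100b were both highest on Fezf1-/- 1 while Ngfr was not, and Sox10, also highest there, is missing from this comparison. The sequences are the 250 bases upstream of the annotated start in RefSeq on GRCm38.p6, written 5′ to 3′ on the strand of the gene. They lie at chr10:57784673-57784922 on the plus strand for Fabp7, at chr10:76253586-76253835 on the plus strand for S100b and at chr11:95587699-95587948 on the minus strand for Ngfr. Capitals mark the words ACAAAG or ACAATG or TCAAAG or TCAATG on either strand, which are forms of the site that SOX proteins prefer.

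Fabp7: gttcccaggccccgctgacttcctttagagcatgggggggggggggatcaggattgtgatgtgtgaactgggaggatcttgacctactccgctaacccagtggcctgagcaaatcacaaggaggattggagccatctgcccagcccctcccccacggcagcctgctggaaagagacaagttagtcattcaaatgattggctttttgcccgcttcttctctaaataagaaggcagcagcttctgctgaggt

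S100b: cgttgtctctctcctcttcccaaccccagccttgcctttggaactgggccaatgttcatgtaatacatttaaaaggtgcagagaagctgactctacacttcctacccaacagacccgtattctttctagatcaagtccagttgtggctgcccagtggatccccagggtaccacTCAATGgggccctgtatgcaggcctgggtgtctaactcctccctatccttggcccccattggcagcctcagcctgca

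Ngfr: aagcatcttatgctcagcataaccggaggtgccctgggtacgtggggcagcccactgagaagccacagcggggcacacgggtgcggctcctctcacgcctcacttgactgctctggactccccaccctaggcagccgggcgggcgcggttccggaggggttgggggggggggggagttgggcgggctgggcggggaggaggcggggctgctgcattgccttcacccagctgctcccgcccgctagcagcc

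One such word was found, in S100b, with its first base 77 bases before the start, and 39.36% of 32851 upstream windows of this length hold at least 1. The word CCAAT, which does not overlap the SOX word in these windows, occurred on the minus strand of Fabp7 126 and 56 bases before the start. In S100b it occurred on the plus strand 202 bases and on the minus strand 20 bases before the start, and 33.85% of windows hold it. The word TATAAA was in none of the 3 windows and in 12.37% of all. The Ngfr window was 70.4% G and C, against 54.8% in Fabp7, 53.6% in S100b and a median of 52.4% over all windows. These words are matches of letters and were not tested as binding sites.

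None of the 4 members differed between the genotypes after adjustment. With limma, 0 of 4 passed an adjusted p of 0.05 over all 6 arrays, where 0.552% of all genes passed, and 0 of 4 passed without Fezf1-/- 1, where 2.66% passed. At an unadjusted p under 0.05 the count of members was also 0 in both fits, beside 9.48% of all genes over all arrays and 16.3% without Fezf1-/- 1. The largest deviations were on 1 array: Sox10, Fabp7 and S100b were each highest on Fezf1-/- 1, as were 29.2% of all genes, and Ngfr was not. Fabp7 and S100b were there at least 2-fold above the highest of the other 5 arrays, as were 4.00% of all genes.

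Sox10, the transcription factor of the group, gave 6.66, 6.42 and 6.24 on the Fezf1+/- arrays and 7.54, 6.43 and 6.33 on Fezf1-/- 1, 2 and 3. The null arrays 2 and 3 lay inside the heterozygous range, and Fezf1-/- 1 lay 0.88 above the highest other array. The means were 6.44 ± 0.21 and 6.77 ± 0.67 (SD, n = 3 each), a difference of 0.33 (SE 0.34, 95% interval -0.49 to 1.15, adjusted p = 0.768 by limma). With Fezf1-/- 1 left out the difference was -0.057 (SE 0.14, 95% interval -0.38 to 0.27, adjusted p = 0.884), so its sign turned and a change of 2-fold lay outside the interval.

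Fabp7 had the widest range over the arrays among the members. It stood at 7.98, 8.32 and 6.74 on the Fezf1+/- arrays, at 11.90 on Fezf1-/- 1, and at 7.80 and 7.77 on Fezf1-/- 2 and 3. The groups overlapped, since both other null arrays lay between heterozygous values. The value of Fezf1-/- 1 was 4.11 above the mean of the other null arrays, a 17.3-fold higher signal on this single array. The genotype means were 7.68 ± 0.83 and 9.16 ± 2.37 (SD, n = 3 each), with a difference of 1.48 (SE 1.18, 95% interval -1.41 to 4.36, adjusted p = 0.725 by limma). The difference without Fezf1-/- 1 was 0.11 (SE 0.43, adjusted p = 0.933), and its interval of -0.91 to 1.12 still holds changes close to 2-fold either way. The heterozygous arrays spanned 1.58, while Fezf1-/- 2 and 3 differed by 0.03.

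S100b had values of 4.96, 5.02 and 4.52 on the Fezf1+/- arrays and of 7.02, 5.10 and 5.03 on Fezf1-/- 1, 2 and 3. All null values lay above all heterozygous values, but Fezf1-/- 3 did so by only 0.01. On Fezf1-/- 1 the gene was 1.95 above the mean of the other null arrays, a 3.86-fold higher signal. The means were 4.83 ± 0.27 and 5.72 ± 1.13 (SD, n = 3 each), a difference of 0.88 (SE 0.55, 95% interval -0.46 to 2.22, adjusted p = 0.666 by limma). In the 5 arrays without Fezf1-/- 1 it was 0.23 (SE 0.16, 95% interval -0.15 to 0.62, adjusted p = 0.533).

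Ngfr, the receptor among the members, was not highest on Fezf1-/- 1. It gave 5.89, 5.49 and 5.58 on the Fezf1+/- arrays and 5.94, 6.04 and 5.90 on Fezf1-/- 1, 2 and 3. The null arrays were close together and all lay above the heterozygous ones, the lowest null value exceeding the highest heterozygous value by 0.02. Such separation, with all null values on the upper side, was found for 2 of the 4 members and for 9.72% of all genes. The means were 5.65 ± 0.21 and 5.96 ± 0.07 (SD, n = 3 each), a difference of 0.31 or 1.24-fold (SE 0.13, 95% interval -0.0037 to 0.62, unadjusted p = 0.0520 and adjusted p = 0.530 by limma). Ngfr was nearly the same without Fezf1-/- 1, at 0.32 (SE 0.14, 95% interval -0.01 to 0.65, adjusted p = 0.322). On Fezf1-/- 1 it differed from the mean of the other null arrays by -0.04, and of 33 further glial genes described below 1 had a value as low in that comparison.

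**Figure D1:**
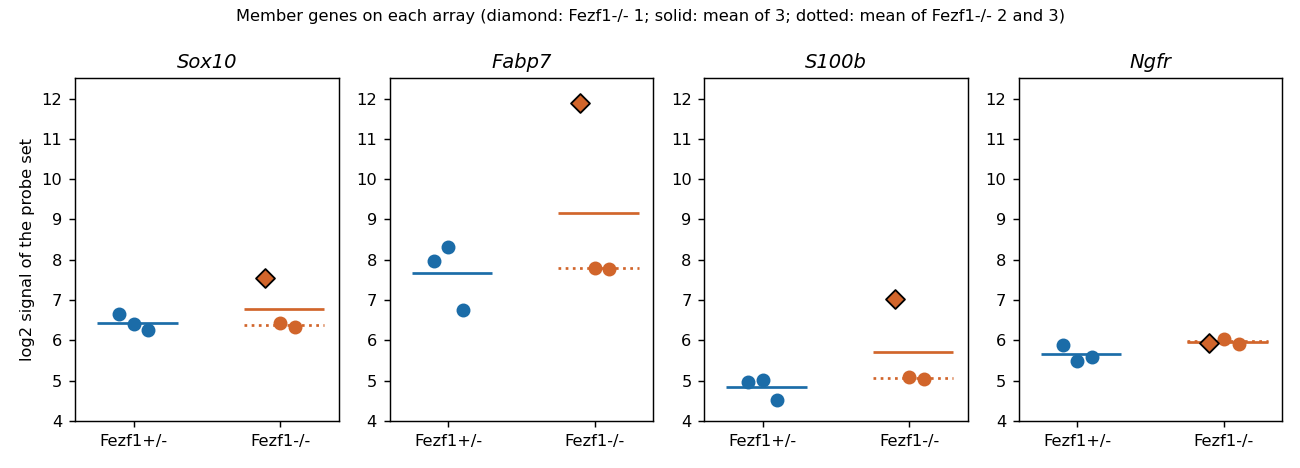
Log2 signal of each member on each array, with circles for single arrays, a diamond for Fezf1-/- 1, solid lines for the mean of 3 arrays and dotted lines for the mean of Fezf1-/- 2 and 3. Sox10, Fabp7 and S100b are highest on Fezf1-/- 1, at 7.54, 11.90 and 7.02, while Ngfr is at 5.94 there and between 5.49 and 6.04 on the other arrays; levels of different probe sets are not comparable.

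**Figure D2:**
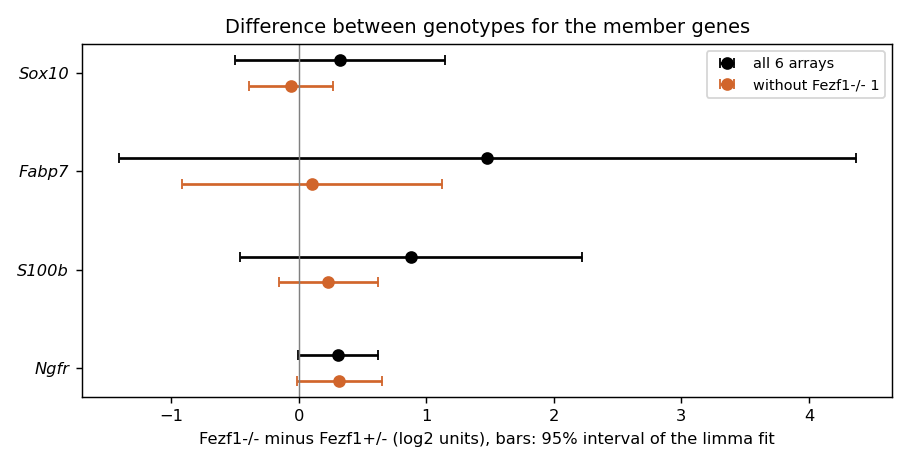
Difference between the genotypes in log2 units for each member, with the 95% interval of the limma fit, from all 6 arrays (black) and without Fezf1-/- 1 (orange). Every interval includes 0, and leaving out that array moves Fabp7 from 1.48 to 0.11 and S100b from 0.88 to 0.23 but Ngfr only from 0.31 to 0.32.

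Within the heterozygous group the members also moved together in part. Sox10, Fabp7 and S100b each had their lowest value of all 6 arrays on Fezf1+/- 3, as 22.5% of all genes did, and Ngfr had its lowest on Fezf1+/- 2. The summed linear signal of mesenchyme markers was likewise lowest on Fezf1+/- 3 (1178, against 2007 and 2651 on Fezf1+/- 1 and 2), and that of mature olfactory neuron markers was highest there (20268, against 14739 and 15417). The part of these cell types in the members' values was not tested.

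Further genes of the lineage were followed in 3 lists, of which 33 genes were measured and none passed by limma in either fit. At an unadjusted p under 0.05 the count was 0 over all 6 arrays, beside the 9.48% of all genes. Of the 33, 27 were highest on Fezf1-/- 1 and 16 were at least 2-fold above all other arrays there, beside the 29.2% and 4.00% of all genes given above. Their median difference was 0.34 over all arrays, with 26 positive, and -0.02 without Fezf1-/- 1, with 14 positive. The median over all genes was 0.02 in both fits.

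Among 9 transcription factors of the neural crest and of the SoxE family, to which Sox10 belongs, 8 were highest on Fezf1-/- 1. Sox8, a SoxE factor, gave 5.52, 5.61 and 5.60 on the Fezf1+/- arrays and 6.73, 5.65 and 5.96 on the Fezf1-/- arrays (difference 0.54, SE 0.27, adjusted p = 0.600, and 0.23 without Fezf1-/- 1). Snai2, a repressor of epithelial genes in crest cells, had a difference of 0.65 (adjusted p = 0.676) and of 0.19 without that array. Tfap2b, Zeb2 and Ets1 exceeded the other null arrays most on Fezf1-/- 1, by 3.49, 2.24 and 1.76. Tfap2b was also high on 1 heterozygous array, at 7.54 on Fezf1+/- 2 against 5.15 and 5.45 on the others. Without Fezf1-/- 1, Sox9 was the one gene of the 9 with an unadjusted p under 0.05, beside 16.3% of all genes. It is named for that after its value was seen. Sox9, a SoxE factor of glands and cartilage, had a difference of -0.71 there (SE 0.14, adjusted p = 0.0506), with 7.64, 7.65 and 7.28 on the Fezf1+/- arrays and 6.84 and 6.78 on Fezf1-/- 2 and 3. It stood at 8.42 on Fezf1-/- 1, and the difference over all 6 arrays was -0.18 (adjusted p = 0.907).

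Of 16 markers of ensheathing glia and Schwann cell precursors, 13 were measured, and 11 of them were highest on Fezf1-/- 1. The water channel gene Aqp1 stood 3.86 above the other null arrays on Fezf1-/- 1, the endothelin receptor gene Ednrb 3.56 and the cadherin gene Cdh19 of early Schwann cells 2.72. Cdh19 lay below the lower quartile on the other 5 arrays (3.53 to 4.03) and reached 6.58 on Fezf1-/- 1, so the size of this gap is uncertain. The smallest p-values were those of Dhh, a hedgehog ligand of Schwann cells (0.34, SE 0.15, adjusted p = 0.543), and of the intermediate filament gene Gfap (0.23, SE 0.12, adjusted p = 0.615). Without Fezf1-/- 1 these differences were 0.20 and 0.23. Gfap resembled Ngfr in having all null values above the heterozygous ones without being highest on Fezf1-/- 1, where it stood at 4.81 against 4.68 and 4.94 on Fezf1-/- 2 and 3. Without Fezf1-/- 1, 3 of the 13 had an unadjusted p under 0.05, where 16.3% of all genes did, and are named after their values were seen. These were the neuregulin receptor gene Erbb3 (-0.59, SE 0.17, adjusted p = 0.144), the matrix gene Matn2 (-0.44, adjusted p = 0.191) and the chaperone gene Cryab (-0.91, adjusted p = 0.216), and none passed the threshold. Over all 6 arrays the sign turned for Erbb3 (0.15, adjusted p = 0.943) and Matn2 (0.46, adjusted p = 0.849), which were highest on Fezf1-/- 1, by 2.23 and 2.70 over the other null arrays, and Cryab was at -0.47 (adjusted p = 0.761).

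The myelin programme, which Schwann cells switch on under Egr2 and which ensheathing glia of the nerve do not complete, gave 11 measured genes of 12. Of these, 8 were highest on Fezf1-/- 1, led by Pmp22 (3.23 above the other null arrays), the connexin gene Gjc3 (2.40) and Mal (1.91). Pmp22 is a myelin protein gene that mesenchymal cells express as well. Mbp, which encodes myelin basic protein, was flat at 6.56 to 6.78 over all 6 arrays, and is named after its values were seen. Mal (0.73, SE 0.56, adjusted p = 0.718) and Gjc3 (0.76, SE 0.67, adjusted p = 0.741) had the smallest p-values of the list over all arrays, and their differences without Fezf1-/- 1 were 0.09 and -0.04. Gjc3 lay below the lower quartile on 3 arrays (4.14 on Fezf1+/- 2, 4.22 on Fezf1+/- 3 and 4.00 on Fezf1-/- 2). The sizes of its gap and of its differences are therefore uncertain.

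The protein family of Fabp7 was described next. Of its 13 measured genes for fatty acid and retinoid binding proteins, 4 were highest on Fezf1-/- 1 and 0 were 2-fold above all other arrays there. Of all genes 29.2% and 4.00% were. The largest excess was 0.54, for the retinoic acid binding protein gene Crabp2, with Fabp9 at 0.34 and Fabp4 at 0.32, and the last 2 of these lay below the lower quartile on every array. In all, 7 of the 13 were below the lower quartile on every array. On Fezf1-/- 1, 5 of the 13 were lowest, beside 6524 of all 19938 genes. Crabp1, named after its values were seen, was among them, at 10.60 against 11.38 to 11.75 elsewhere. Fabp5, the epidermal fatty acid binding protein gene, was lowest on Fezf1-/- 1 (7.98), with 8.09, 8.06 and 7.996 on the Fezf1+/- arrays and 8.95 and 8.70 on Fezf1-/- 2 and 3. It did not pass over all arrays (0.49, SE 0.25, adjusted p = 0.602) and rose by 0.77 (SE 0.11, adjusted p = 0.0192) without Fezf1-/- 1.

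S100b belongs to the S100 calcium-binding proteins. Of 15 further measured genes, the receptor gene Ager included, 10 were highest on Fezf1-/- 1 and 5 were at least 2-fold above all other arrays there. Of all genes 29.2% and 4.00% were. S100a8, a neutrophil and macrophage protein gene, stood at 6.29 on Fezf1-/- 1 and below the lower quartile on the other 5 arrays (3.97 to 4.32), so the size of its gap of 2.05 to the other null arrays is uncertain. S100a6 exceeded those arrays by 1.83 and S100a11 by 1.71. None passed in either fit. S100a14 (0.33, SE 0.11, adjusted p = 0.403) and S100a10 (0.89, SE 0.33, adjusted p = 0.480) had the smallest p-values over all arrays, and their null values all lay above the heterozygous ones. Their differences without Fezf1-/- 1 were 0.26 and 0.56. Going the other way, 3 of the 15 were lowest on Fezf1-/- 1, beside 6524 of all 19938 genes. Among these were S100z, at 7.69 against 8.77 to 9.36 elsewhere, and S100a5, at 6.41 against 7.70 to 8.86. S100a5 is a gene of mature olfactory neurons, and both are named after their values were seen.

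Ngfr acts with neurotrophins and Trk kinases, of which 11 of 14 listed genes were measured, and none passed in either fit. Ntrk2, the receptor for BDNF, gave 4.87, 4.83 and 4.68 on the Fezf1+/- arrays and 6.79, 5.29 and 5.21 on Fezf1-/- 1, 2 and 3, so that all null values lay above all heterozygous ones. Its difference was 0.97 (SE 0.43, adjusted p = 0.546) over all arrays and 0.46 (SE 0.10, adjusted p = 0.0792) without Fezf1-/- 1. Lingo1, a co-receptor of p75 in neurons, differed by -0.96 (SE 0.51, adjusted p = 0.616) and by -0.36 (adjusted p = 0.360) without that array, on which it was lowest at 6.33. The list median was 0.11 over all arrays and 0.09 without Fezf1-/- 1.

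Neuregulins and ErbB receptors, through which axons sustain Schwann cells, had 0 of 7 genes called in either fit by limma, with 0 at an unadjusted p under 0.05 over all arrays and 2 without Fezf1-/- 1, beside 16.3% of all genes in that fit. These 2, named after their values were seen, were the receptor genes Egfr (-0.63, SE 0.17, adjusted p = 0.128) and Erbb2 (-0.45, SE 0.17, adjusted p = 0.272). Both were highest on Fezf1-/- 1, by 1.98 and 1.45 over the other null arrays, and over all 6 arrays their differences were 0.02 and 0.04. Erbb4 (-0.22, SE 0.14, adjusted p = 0.680) and the ligand gene Nrg2 (0.17, SE 0.12, adjusted p = 0.708) had the smallest p-values over all arrays, and were at -0.20 and 0.08 without Fezf1-/- 1.

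Markers of mesenchyme, of myeloid cells and of endothelium and pericytes moved with Sox10, Fabp7 and S100b on Fezf1-/- 1. Melanocyte markers did not, and central glia markers were divided, as described below. Of all genes, 29.2% were highest on Fezf1-/- 1. All 11 measured mesenchyme markers were highest there, and their summed linear signal was 19098 on that array, 1939 and 1291 on Fezf1-/- 2 and 3, and 1178 to 2651 on the Fezf1+/- arrays. Lum and Postn, matrix genes of connective tissue, exceeded the other null arrays by 5.42 and 4.67. All 10 myeloid markers were highest on Fezf1-/- 1, with a summed signal of 1920 against 391 to 514 on the other 5 arrays, and Mrc1 and C1qb of macrophages exceeded the other null arrays by 2.56 and 2.40. All 10 endothelium and pericyte markers were highest there too, with 2826 against 551 to 1130, led by Pdgfrb (3.82) and Kdr (2.80). The summed signal of the 13 ensheathing and Schwann precursor markers was 4128 on Fezf1-/- 1, 852 and 849 on Fezf1-/- 2 and 3, and 890 to 1248 on the Fezf1+/- arrays. Mature olfactory neuron markers moved the opposite way, with 11 of 12 lowest on Fezf1-/- 1, beside 6524 of all 19938 genes. Their summed signals were 3314 on that array, 9923 and 10410 on Fezf1-/- 2 and 3, and 14739 to 20268 on the Fezf1+/- arrays. The part of any of these cell types in the members' values was not tested.

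Over all 6 arrays 0 of 75 genes of other cell types passed by limma, with 12 at an unadjusted p under 0.05, beside the 9.48% of all genes. Mature olfactory neuron markers made up 9 of the 12, and the smallest p-values were those of Slc24a4 (-1.07, adjusted p = 0.0635) and Pde1c (-0.97, adjusted p = 0.0694), which carry calcium and cyclic nucleotide signalling in these neurons. On Fezf1-/- 1 this pair differed from the other null arrays by 0.21 and -0.24. Within the mesenchyme list Sp7 (0.51, adjusted p = 0.540) and Col2a1 (0.54, adjusted p = 0.675) had the smallest p-values over all arrays, and without Fezf1-/- 1 they were at 0.27 and 0.17. Within the myeloid list these were Cd68 (0.86, adjusted p = 0.628) and C1qa (0.81, adjusted p = 0.631), at 0.30 and 0.28 without that array. Without Fezf1-/- 1, Rgs5, a pericyte gene also found in other cells, fell by 1.29 (SE 0.21, adjusted p = 0.0278), against -0.55 over all 6 arrays (adjusted p = 0.791). In the same 5 arrays 6 of 12 mature neuron markers passed and all 6 fell, where 2.66% of all genes passed. Among them were Kirrel2 (-1.21), Stoml3 (-1.17), Omp (-1.12) and Adcy3 (-0.93). Over all 6 arrays these 4 were at -1.67, -1.83, -1.69 and -1.28 and did not pass.

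Sox10 and S100b can also be read in cells that are not ensheathing glia, so lists of those cells were set beside them. Melanocytes use Sox10, and 0 of 7 melanocyte markers were highest on Fezf1-/- 1, beside 29.2% of all genes. On that array Dct stood at 4.86 and Tyrp1 at 4.43. Slc45a2 (0.18, adjusted p = 0.648) and Tyr (-0.28, adjusted p = 0.696) did not pass, and were at 0.25 and -0.25 without Fezf1-/- 1. Tyrp1 was highest on Fezf1+/- 2, at 6.20 against 4.39 to 4.55 on the other 5 arrays. Dct and Tyr were highest there too, at 5.67 against 4.61 to 4.93 and at 4.91 against 4.14 to 4.33. Tyr lay below the lower quartile on 5 arrays and Tyrp1 on 3, so the sizes of their differences are uncertain. Bowman's glands also use Sox10, and 3 of 8 gland markers were highest on Fezf1-/- 1, beside 29.2% of all genes. Without that array 0 of 8 had a positive difference (median -0.84). In that fit 6 had an unadjusted p under 0.05 by limma, where 16.3% of all genes did. Sox9 is in this list and also in that of neural crest and SoxE factors, so the 2 lists are not separate. It is counted in both the 3 and the 6. The gland gene Scgb1c1 stood at 10.15 on Fezf1-/- 1 and at 7.91 and 7.95 on the other null arrays. It fell by 1.45 without Fezf1-/- 1 (SE 0.18, adjusted p = 0.0127), against -0.71 over all 6 arrays (adjusted p = 0.741). Bpifb9b exceeded the other null arrays by 1.94. Sustentacular cells, the supporting cells of the epithelium, had 5 of 7 markers highest on Fezf1-/- 1, beside 29.2% of all genes. There Ermn stood 1.44 and Sec14l3 1.19 above the other null arrays. Without that array Ermn fell by 0.96 (SE 0.15, adjusted p = 0.0240), against -0.48 over all 6 arrays (adjusted p = 0.737). The list median without Fezf1-/- 1 was -0.58, with 1 of 7 positive. That gene was Krt8, named after its values were seen (0.60, adjusted p = 0.178). Over all 6 arrays Krt8 was at 0.67 (adjusted p = 0.300), with all null values above the heterozygous ones. The part of these cells in the Sox10 and S100b values was not tested.

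Markers of central glia, which also use S100b and Fabp7, were divided. Of 10, 4 were highest on Fezf1-/- 1, where 29.2% of all genes were. The tight junction gene Cldn11 stood 3.01 and the glutamate transporter gene Slc1a3 1.33 above the other null arrays. On Fezf1-/- 1, 3 of the 10 were lowest, beside 6524 of all 19938 genes. The smallest p-values were those of the glutamate transporter gene Slc1a2 (-0.64, SE 0.13, adjusted p = 0.158) and Aldh1l1, an astrocyte enzyme gene (0.40, SE 0.17, adjusted p = 0.526). In the other 5 arrays these were -0.60 (adjusted p = 0.0839) and 0.56 (adjusted p = 0.0758). Neither passed in either fit.

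**Figure D3:**
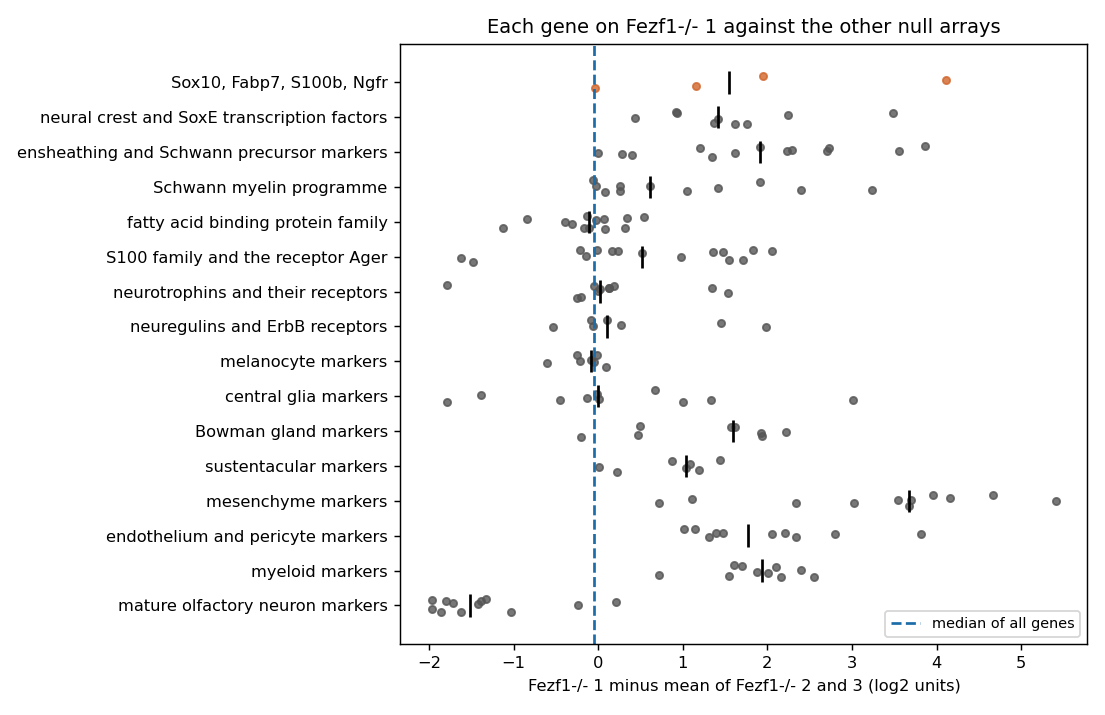
Value of each gene on Fezf1-/- 1 minus the mean of Fezf1-/- 2 and 3, in log2 units, for the members (orange) and for each gene list (grey), with the list median as a black bar and the median of all genes as a dashed line. Fabp7 lies at 4.11 and Ngfr at -0.04, and the list medians run from -1.52 for mature olfactory neuron markers to 3.67 for mesenchyme markers.

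**Figure D4:**
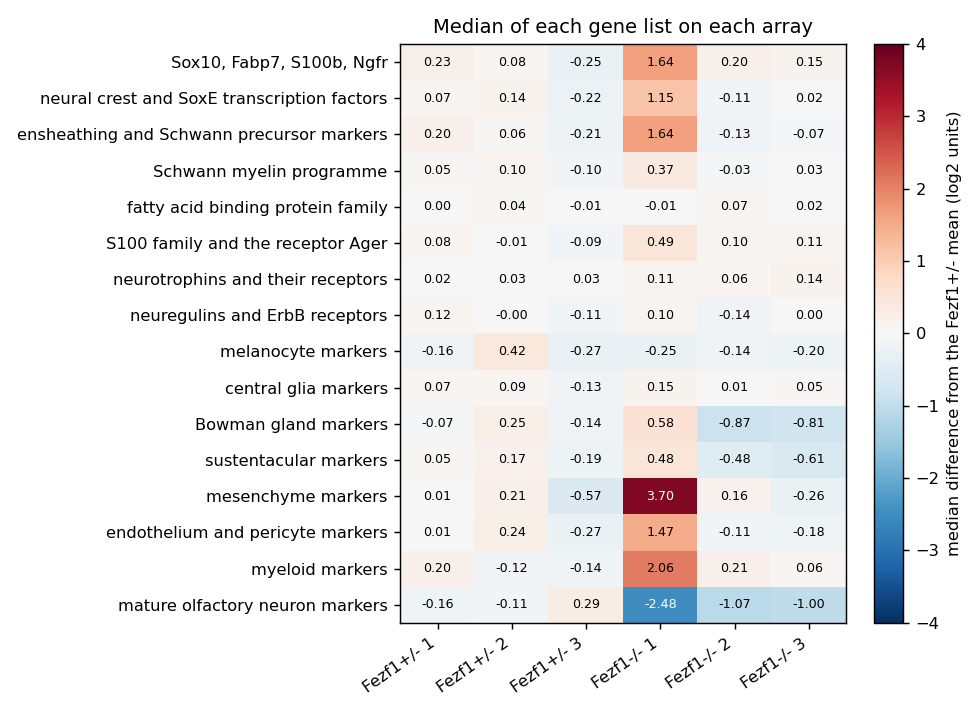
Median over the genes of each list of the difference from the Fezf1+/- mean, in log2 units, for each array, with red above and blue below that mean. On Fezf1-/- 1 the 4 members and the ensheathing and Schwann precursor markers both stand at 1.64, mesenchyme markers at 3.70 and mature olfactory neuron markers at -2.48.

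The genes whose profiles over the 6 arrays came closest to each member were found by the root mean square difference of values taken from the heterozygous mean, which is smaller for a closer match. For Fabp7 they were Nid1, a basement membrane gene (0.22), the angiotensin receptor gene Agtr2 (0.22), Postn (0.24), Sfrp2, a secreted Wnt antagonist gene (0.24), and Srgn, the serglycin gene of blood cells (0.26). Like Fabp7, each was highest on Fezf1-/- 1 and lowest on Fezf1+/- 3. For S100b the closest were Col6a2 (0.08), Klf9 (0.09), Hpse2 (0.11), Plxdc2 (0.11) and Chst14 (0.11). For Sox10 they were the heparan sulfate enzyme gene Ext1 (0.06), the hedgehog receptor gene Ptch1 (0.06), Dnah8 (0.06), Slc8b1 (0.07) and Tspan11 (0.07). For Ngfr they were Cela2a (0.04), Capn1 (0.05), 4930505O20Rik (0.05), Cd5l (0.05) and Spata13 (0.06), and these stood between -0.0024 and 0.08 on Fezf1-/- 1 relative to the other null arrays. All these genes were chosen by their values on the same 6 arrays. Their likeness to Fabp7 or Ngfr on single arrays follows from that choice and is not a separate result.

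No member was among the 5 closest genes of another. Among the 19937 other genes, S100b ranked 205 in closeness to Fabp7, Sox10 ranked 936 and Ngfr 4658. Seen from S100b, Sox10 ranked 761, Ngfr 4083 and Fabp7 8593. Seen from Sox10, Ngfr ranked 4845, S100b 9800 and Fabp7 19514, and seen from Ngfr, Sox10 ranked 14346, S100b 18615 and Fabp7 19812. The ranks thus differed with the member they were seen from. Deviations were not scaled, so closeness depends on their size as well as on the pattern over the arrays. Sox10, Fabp7 and S100b shared their highest array and their lowest array, and Ngfr had others. Yet the root mean square difference from Sox10 was 0.40 for Ngfr, 0.49 for S100b and 1.34 for Fabp7. A distant rank therefore does not show an unlike pattern. These profiles rest on 6 arrays, and a rank was not tested.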

How the data were processed

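Sorted cells were profiled on Affymetrix Mouse Gene 1.0 ST arrays from 100 ng of total RNA, as the labels and the design text state. The authors deposited log2 signals, and GCRMA and Affymetrix Expression Console are named in the submitters' processing notes, with no versions or order. A genome build was not given in the sources used here. Base 2 was assumed, because values reach 14.5 and a natural logarithm of a 16-bit reading ends at 11.1. GCRMA subtracts a modelled background, so gaps between low values are uncertain, and scanner files were not used here.

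Of 35557 probe sets, 21789 had 1 gene symbol in GEO's annotation of 2016, 1621 had several and 12147 had none listed. Symbols were updated by Entrez number to RefSeq names (GRCm38.p6), which matched for 21698. Among several probe sets of a gene the one with the highest 6-array mean was kept, giving 19938 genes with no filter. Groups came from the sample titles. Genotypes were compared with limma 3.58.1 (R 4.3.3, lmFit and eBayes, two-sided, Benjamini-Hochberg over all genes), the source of every adjusted p. The procedure was run on simulated data whose spread came from the arrays without Fezf1-/- 1. That run therefore does not show how the fit of all 6 arrays behaves with an array that stands apart. Precision is limited by 3 arrays per genotype, whose spread may be technical.

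The members, lists and tests were chosen with earlier results of these data known. Named genes were, per list, up to 4 past the threshold in either fit or else the 2 with the smallest p, the 3 (glia and protein families) or 2 (other cells) that exceeded the other null arrays most on Fezf1-/- 1, and the 5 closest profiles of each member. Genes named outside this rule are marked as such. Upstream sequences were read from RefSeq for 3 of 4 members. Alternatives were other scalings, filters, a floor, variance models, array weights, a replicate block and leaving out each array.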

Additional observations from a re-analysis of the deposited data

How the results depend on the processing

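Across 15 alternatives no member passed by limma or by the unmoderated test. Adjusted p ranged from 0.635 to 1.0 for Sox10, 0.627 to 1.0 for Fabp7, 0.533 to 1.0 for S100b and 0.144 to 1.0 for Ngfr. Differences ranged from 0.10 to 2.17 for Fabp7, 0.23 to 1.23 for S100b, 0.23 to 0.42 for Ngfr and -0.057 to 0.54 for Sox10. Sox10 turned to -0.014 with array weights and to -0.057 without Fezf1-/- 1. With array weights, 740 genes passed, 284 higher and 456 lower, against 110 (19 and 91) in the fit as reported. With genes above the median mean 24 passed (11 and 13), from which S100b and Ngfr were filtered out, and with the unmoderated model 8 (2 and 6). Leaving out 1 array gave 40 to 531 genes, the highest count without Fezf1-/- 1 (198 and 333).

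With array weights, called genes went from 0 to 1 in the fatty acid binding, Bowman gland and sustentacular lists, to 2 in the central glia list and to 7 in the mature neuron list, which had 1 with quantile normalisation. Leaving out 1 array gave 0 to 1 in the fatty acid binding, Bowman gland, sustentacular and endothelium and pericyte lists and 0 to 6 in the mature neuron list. The cause was not tested. In the other 9 lists the count was 0 throughout.

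The replicate numbers were not shown to pair the arrays: deviations from the genotype mean correlated across genes at 0.23, -0.33 and 0.54 for replicates 1, 2 and 3. With replicate number as a block 88 genes passed (5 higher and 83 lower), no member did, and Sox10, Fabp7, S100b and Ngfr had adjusted p of 0.677, 0.668, 0.605 and 0.585. Alternatives that need scanner files, such as another background correction, were not run.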

Other observations

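Olig1 and Olig2, transcription factor genes known from the oligodendrocyte lineage and from olfactory progenitors, were lowest on Fezf1-/- 1; both are named after their values were seen. Olig1 gave 9.59, 9.61 and 9.53 on the Fezf1+/- arrays and 7.53, 9.16 and 9.48 on Fezf1-/- 1, 2 and 3. Olig2 gave 9.26, 8.99 and 9.23 on the Fezf1+/- arrays and 7.71, 9.06 and 9.14 on the Fezf1-/- arrays. Neither passed by limma with that array (adjusted p = 0.648 and 0.711) or without it (adjusted p = 0.349 and 0.841).

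On Fezf1+/- 2, the pigment gene Pmel stood at 7.61 against 5.30 to 5.92 on the other 5 arrays, and Tfap2b at 7.54 there against 4.56 to 5.45 on the other arrays except Fezf1-/- 1, where it stood at 8.15. Pmel stood at 5.82 on Fezf1-/- 1. Both are named after their values were seen.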
